A study of Mus musculus with 12 samples.

Results

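Homologous recombination copies the intact sister chromatid to mend a DNA double-strand break, and the Fanconi pathway feeds interstrand crosslinks and stalled forks into the same machinery. The mRNA abundance of 39 genes of these pathways was followed in LPS-activated mouse splenic B cells that received etoposide, a topoisomerase II poison that leaves double-strand breaks, with or without inhibition of the damage kinase ATM. The 39 genes were chosen by symbol from a list of pathway members, all 39 are among the 29486 genes of the deposited table, and all 39 passed the filter on low values described here. B cells came from the spleens of C57BL/6Babr mice, of 8 to 12 weeks of age per the methods of the study. Each of the 3 conditions has 4 libraries. Cells of the LPS condition received LPS (10 µg/ml, 48 h), cells of the LPS + etoposide condition received etoposide (20 µM, 4 h) after LPS (48 h), and cells of the LPS + KU55933 + etoposide condition received LPS (47 h), then the ATM inhibitor KU55933 (10 µM) 1 h before the same etoposide. All cells were activated by LPS, the labels give no genetic change, no condition received KU55933 without etoposide, and the labels state neither a vehicle nor whether cells with LPS alone were kept for the further 4 h.

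As background, the MRN complex senses a break, and CtIP, EXO1 and DNA2 resect its ends to single-stranded DNA. BRCA1 with BARD1, PALB2 and BRCA2 then prepare the single strand for pairing, helped by XRCC2, XRCC3 and related proteins, and RAD54 drives strand invasion. The joint molecules are dissolved by BLM with its RMI partners or cut by nucleases, and in the Fanconi branch a core complex monoubiquitinates the FANCD2 and FANCI pair. Most of these genes are transcribed mainly in cells that replicate their DNA, as LPS-activated B cells do.

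The deposited values are on the count scale of each library and sum to 20.7 to 23.9 M counts per library with LPS, 22.5 to 30.6 M with LPS + etoposide and 20.4 to 25.1 M with LPS + KU55933 + etoposide. Within a condition the ratio between any 2 libraries was the same for every gene, to within 2.8e-14 on the log2 scale. The table therefore holds, for each gene, 1 fitted mean per condition multiplied by a factor for each library, and it carries no spread between replicates. No test was run on it and no p-value is given, so that none of the differences described here has a replicate check. Values called fitted counts below are the deposited values divided by a size factor (0.817 to 1.32), which leaves 1 value per gene and condition. A gene was called when its log2 difference, at a pseudocount of 1, was at least 1.5-fold either way (0.585 on the log2 scale), among the 15592 genes that reached a fitted count of 10 in at least 4 libraries. Intervals at the 95% level treat the values summed over the 4 libraries as counts, cover counting error only and are a lower limit of the error. In bulk RNA, fewer cells of a type and less RNA per cell cannot be told apart. The 4 B-cell markers Cd79a, Cd79b, Ms4a1 and Pax5 were all detected, with summed fitted counts of 80778, 50797 and 47970.1 in the order LPS, LPS + etoposide and LPS + KU55933 + etoposide. The 5 T-cell markers summed to at most 9.33 and the 4 neutrophil markers to at most 1.54, while 6 macrophage markers summed to between 418 and 468 and 5 red-blood-cell markers to between 115 and 218. Of the 6 macrophage markers 3 were called higher and 1 lower with etoposide, and their part in the members' values was not tested.

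Before etoposide, recombination and Fanconi genes were moderately abundant in LPS-activated B cells. Their fitted counts ran from 117 (Fancf) to 2811 (Rad50), with a median of 1011 against 451 for all tested genes, and 35 of the 39 lay above the latter. Tested genes reached down to 1.06 with LPS, since a gene could pass the filter on another condition. Per kb of exon, which allows levels of different genes to be compared, the median was 174 against 128 for all tested genes, and 29 of the 39 lay above it. The 3 highest levels per kb were those of the subunits of MRN, the break sensor: Rad50 (523), Nbn (334) and Mre11a (321). They were followed by Brca1 (306), the nuclease scaffold gene Slx4 (286) and Fancd2 (281). The lowest were Rad51b (35.6), Fancf (69.3) and Rad52 (72.1). With no replicate spread, no order between neighbours can be tested.

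**Figure D1:**
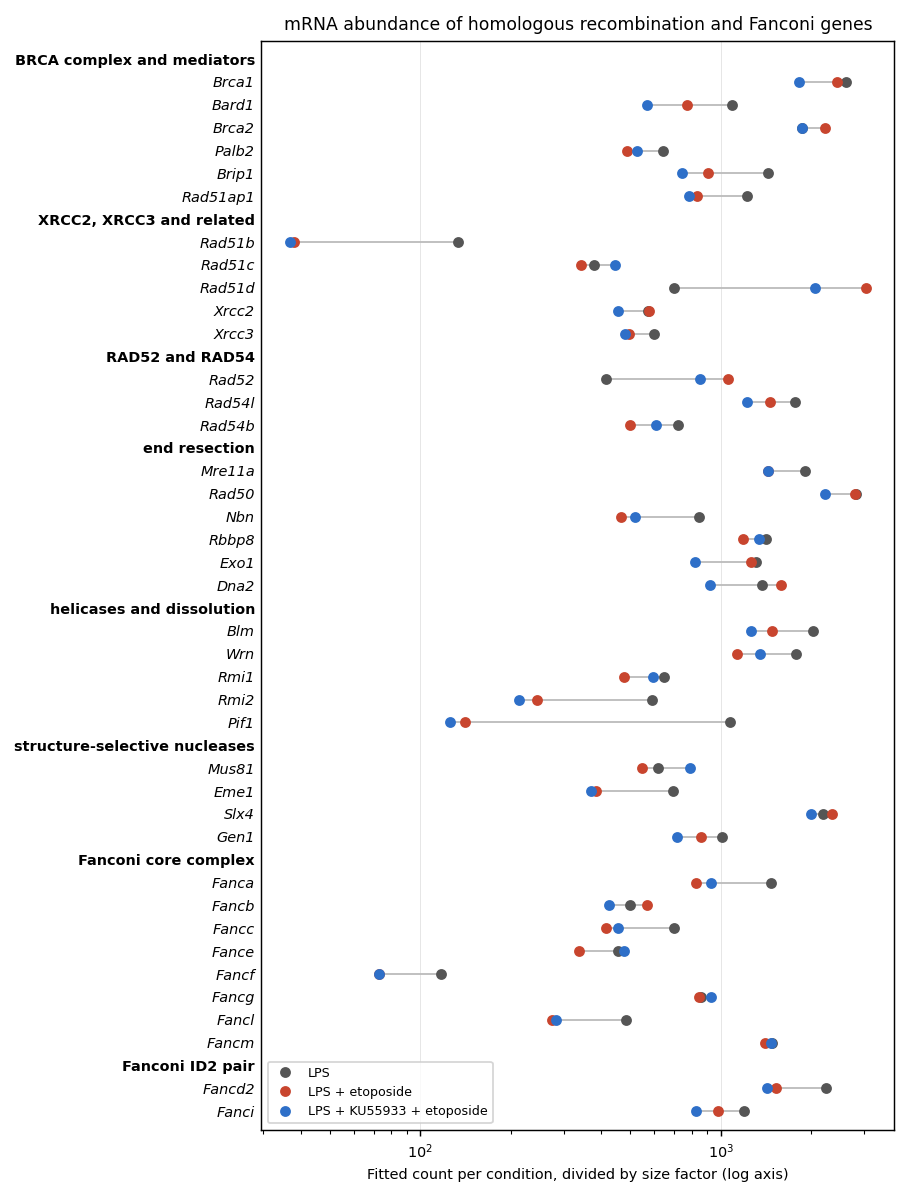
Fitted count of each of the 39 genes (log axis, deposited value divided by size factor) in the 3 conditions, 1 point per condition, grouped by role; grey bars join the lowest and highest condition. Rad51d, Rad52, Rad51b, Rmi2 and Pif1 show the widest distances between conditions, and most other genes stay within a narrow range.

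Of the 39 genes, 11 (28.2%) were called lower after etoposide, beside 16.4% of all tested genes, and 2 (5.13%) were called higher, beside 21.9% of all tested genes. The 11 are Pif1, Rad51b, Rmi2, Nbn, Eme1, Fanca, Fancl, Fancc, Fancf, Wrn and Brip1, and the 2 are Rad51d and Rad52. The share over all tested genes depends on the filter, since some of them were near-silent with LPS. At a minimum fitted count of 50, 2190 of 12464 tested genes were called higher and 2195 lower, with a median of −0.07. The members' calls were the same. The median log2 difference of the 39 genes was −0.39, against −0.02 for all tested genes, with 32 of the 39 below 0 and 7 above. The remaining 26 genes were within 1.5-fold. Scaling by column totals left 8 called lower, without Wrn, Brip1 and Fancf, and 27 genes below 0. Counting error alone leaves 0 outside the interval for 35 of the 39 genes and puts the whole interval past 1.5-fold for 12 of the 13 called genes, all but Fancf (−0.90 to −0.48).

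**Figure D2:**
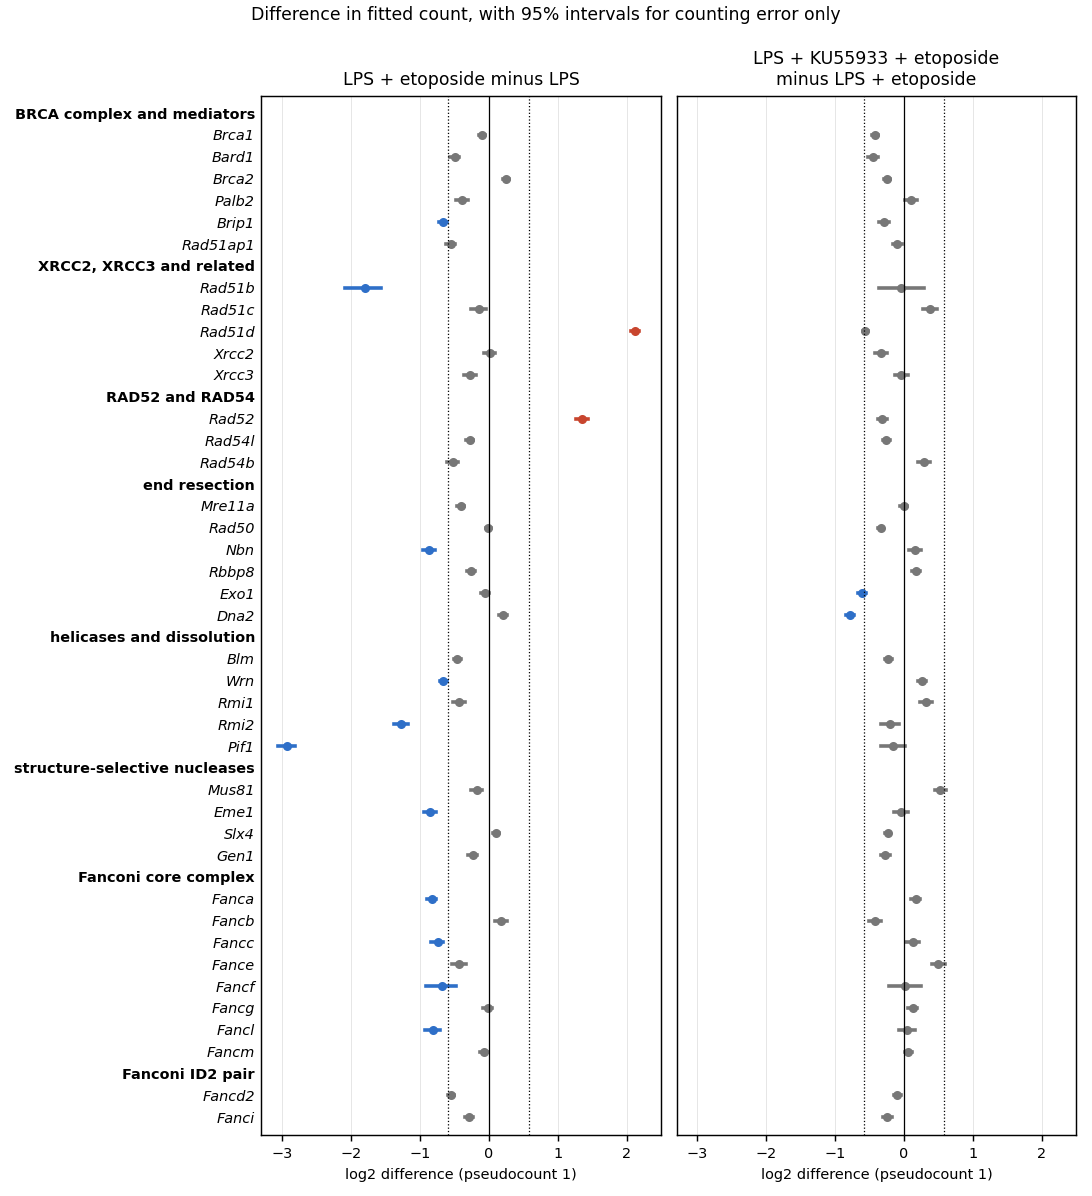
Log2 difference in fitted count (pseudocount 1) of the 39 genes for LPS + etoposide minus LPS and for LPS + KU55933 + etoposide minus LPS + etoposide. Horizontal bars are 95% intervals for counting error only, dotted lines mark 1.5-fold, and red and blue mark genes past it upward and downward: 2 and 11 on the left, 0 and 2 on the right.

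The family of Rad51b, Rad51c, Rad51d, Xrcc2 and Xrcc3 held 1 gene called higher (20%, beside 21.9% of all tested genes) and 1 called lower (20%, beside 16.4%). Its proteins are related ATPases that assemble in small complexes and act on single-stranded DNA. Rad51d (ENSMUSG00000018841, chromosome 11, 82876434 to 82890614, GRCm38) was deposited at 570.0, 632, 658 and 593 in LPS replicates 1 to 4, at 2946, 3303, 3999.8 and 3202 in the libraries with LPS + etoposide and at 1861, 2099, 2248 and 2285 in those with LPS + KU55933 + etoposide. The values with LPS + etoposide are the high ones and do not overlap those with LPS, but here and for the genes that follow the scatter within a condition is library size only, so that such a separation restates the fitted means and is no replicate check. The difference was 4.34-fold, or 2.12 on the log2 scale (counting interval 2.06 to 2.18). Rad51b (chromosome 12, 79297282 to 79814690), the lowest of the 39 genes per kb, was at 109, 121, 126 and 114 in LPS replicates 1 to 4, at 36.8, 41.3, 50.002 and 40.0 in the libraries with LPS + etoposide and at 33.5, 37.7, 40.4 and 41.1 in those with LPS + KU55933 + etoposide. It was 3.47-fold lower after etoposide, a log2 difference of −1.79 (counting interval −2.08 to −1.56). Rad51b values with and without KU55933 overlap, but an overlap, like a separation, is no replicate check here. The other genes of the family, Rad51c, Xrcc2 and Xrcc3, had log2 differences of −0.14, 0.01 and −0.27, all within 1.5-fold. Per kb of exon, Rad51d thus went from rank 19 among the 39 genes with LPS (188) to the highest with LPS + etoposide (816), and Rad51b was lowest in both.

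RAD52 anneals single strands and RAD54 is a motor that promotes strand invasion. Rad52 (chromosome 6, 119902698 to 119922828) was deposited at 339, 376, 391 and 352 in LPS replicates 1 to 4, at 1028, 1152, 1395 and 1117 in the libraries with LPS + etoposide and at 771, 869.6, 932 and 947 in those with LPS + KU55933 + etoposide. It was 2.55-fold higher with etoposide, with a log2 difference of 1.35 (counting interval 1.27 to 1.44). Rad54l and Rad54b had log2 differences of −0.27 and −0.53, neither called. Exons of Rad54b share 2068 bases on the same strand with Fsbp, whose fitted counts were 51.6, 30.6 and 26.1 in the 3 conditions. Reads on the shared bases are ambiguous between these 2 genes, and how they were counted is not given in the sources used here.

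The helicases and the dissolution complex had the lowest median log2 difference of the role groups of more than 2 genes, −0.66. Of these 5 genes, 3 were called lower (60%, beside 16.4% of all tested genes). Pif1 (chromosome 9, 65587160 to 65595967) encodes a helicase that unwinds G-quadruplexes and acts in break-induced replication. It was deposited at 879, 975, 1014 and 914 in LPS replicates 1 to 4, at 137, 153, 186 and 149 in the libraries with LPS + etoposide and at 114, 129, 138 and 140.4 in those with LPS + KU55933 + etoposide. The fitted count was 7.59-fold lower with etoposide, and the log2 difference of −2.92 (counting interval −3.06 to −2.81) was the largest of any sign among the 39 genes. Rmi2 (chromosome 16, 10835059 to 10892966), a small OB-fold subunit of the BLM complex, was at 484, 537, 558 and 503 in LPS replicates 1 to 4, at 238, 266, 323 and 258 in the libraries with LPS + etoposide and at 193, 217, 233 and 236 in those with LPS + KU55933 + etoposide. The log2 difference was −1.27 (counting interval −1.38 to −1.17). Its partners Blm and Rmi1 were at −0.46 and −0.43, and the related helicase gene Wrn was called lower at −0.66 (1782 and 1128 fitted counts). Wrn lost this call with column totals and with quantile normalization. Exons of Rmi1 overlap those of Hnrnpk on the opposite strand by 330 bases, and Hnrnpk had fitted counts of 22496, 17949.7 and 14356.

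Of the 6 end resection genes 1 was called, in the lower direction (16.7%, beside 16.4% of all tested genes). Among the MRN subunits, Rad50 had almost the same fitted count with and without etoposide (2811 and 2801), Mre11a was lower by less than 1.5-fold (−0.40), and Nbn, which recruits ATM to the complex, was called lower. Nbn (chromosome 4, 15957925 to 15992589) was at 692, 767, 798 and 719 in LPS replicates 1 to 4, at 451, 505, 612 and 490.0 in the libraries with LPS + etoposide and at 471, 531, 569 and 578 in those with LPS + KU55933 + etoposide. The log2 difference was −0.86 (counting interval −0.95 to −0.78). Rbbp8, which encodes CtIP, Exo1 and Dna2 had differences of −0.25, −0.06 and 0.21. None of these 3 was called.

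Of the BRCA genes and their partners, 1 of 6 was called, in the lower direction (16.7%, beside 16.4% of all tested genes). Brca2, a mediator of strand exchange, was higher by 0.26 on the log2 scale (1858 and 2218 fitted counts), and Brca1 differed by −0.10 (2607 and 2440.1). Bard1, the partner that makes BRCA1 a ubiquitin ligase, and Palb2, the bridge between BRCA1 and BRCA2, differed by −0.49 and −0.39. The BRCA1-associated helicase gene Brip1 was called lower (−0.66, 1432 and 907 fitted counts), though not with column totals, and Rad51ap1 lay just short of the limit at −0.55.

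The structure-selective nucleases cut joint molecules. Eme1 (chromosome 11, 94644996 to 94653964), the partner of the catalytic subunit MUS81, was deposited at 567, 629, 655 and 590.0 in LPS replicates 1 to 4, at 373, 418, 506 and 405 in the libraries with LPS + etoposide and at 337, 379.8, 407 and 414 in those with LPS + KU55933 + etoposide. The log2 difference was −0.85 (counting interval −0.95 to −0.77), whereas that of Mus81 was −0.18. Slx4, a nuclease scaffold, and Gen1, a Holliday junction resolvase, were at 0.10 and −0.23. Exons of Eme1 overlap those of Lrrc59 (221 bases) and Mrpl27 (75 bases) on the opposite strand. In the 3 conditions Lrrc59 had fitted counts of 4667, 3373 and 3134, and Mrpl27 of 496, 440 and 439.

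In the Fanconi core complex, 4 of 8 genes were called lower (50%, beside 16.4% of all tested genes), and subunits of the same module differed from each other. In the FANCA and FANCG module, Fanca was called lower (1468 and 828 fitted counts, −0.83) and Fancg was not (857 and 848, −0.02). In the catalytic module, the ubiquitin ligase gene Fancl was called lower (482 and 274, −0.81) and its partner Fancb was higher by less than 1.5-fold (500.2 and 567, 0.18). The third module had Fancc at −0.74, Fancf at −0.68 and Fance at −0.43, of which Fancc and Fancf were called. Fancf lost its call with column totals. Fancm, the DNA translocase that anchors the complex, was at −0.07. The substrates of the complex, Fancd2 and Fanci, were at −0.54 (2232 and 1529 fitted counts) and −0.29 (1195 and 979), neither called. The counting intervals of Fanca (−0.89 to −0.77) and Fancg (−0.09 to 0.05) do not overlap, nor do those of Fancl (−0.92 to −0.71) and Fancb (0.09 to 0.27), and no difference between genes could be tested against replicates. Exons of Fanca overlap those of Zfp276 on the opposite strand by 920 bases (458, 535 and 624 fitted counts in the 3 conditions). Those of Fancl overlap Vrk2 on the opposite strand by 462 bases (665, 391 and 362). Fancc and Fancf also share exonic bases with genes on the opposite strand. The part of these overlaps in the values was not tested.

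**Figure D3:**
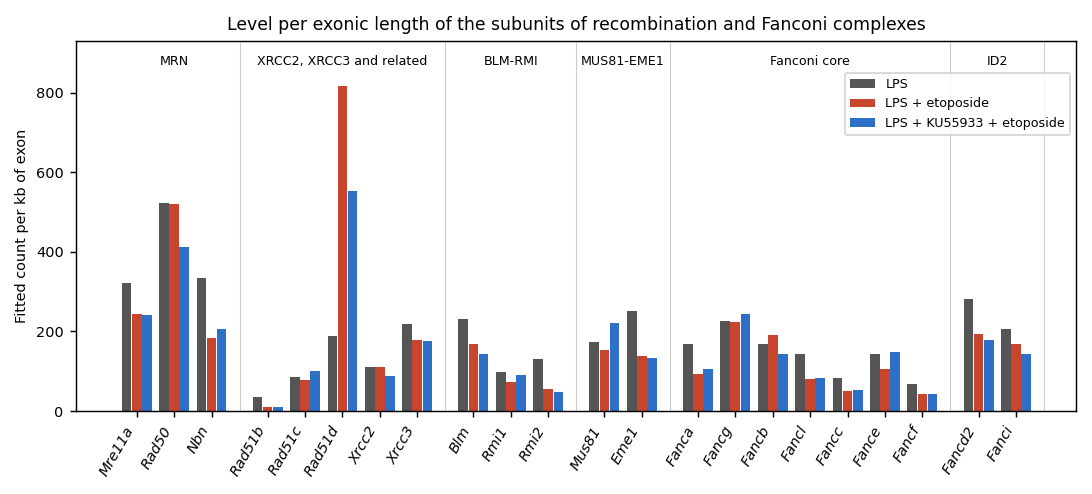
Fitted count per kb of exon (linear axis from 0) of the subunits of 6 complexes or families in the 3 conditions, 1 bar per condition with no error bar because the table holds no replicate spread. Rad51d with LPS + etoposide reaches 816, above every other bar, while Rad51b is at most 35.6 in any condition.

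**Figure D4:**
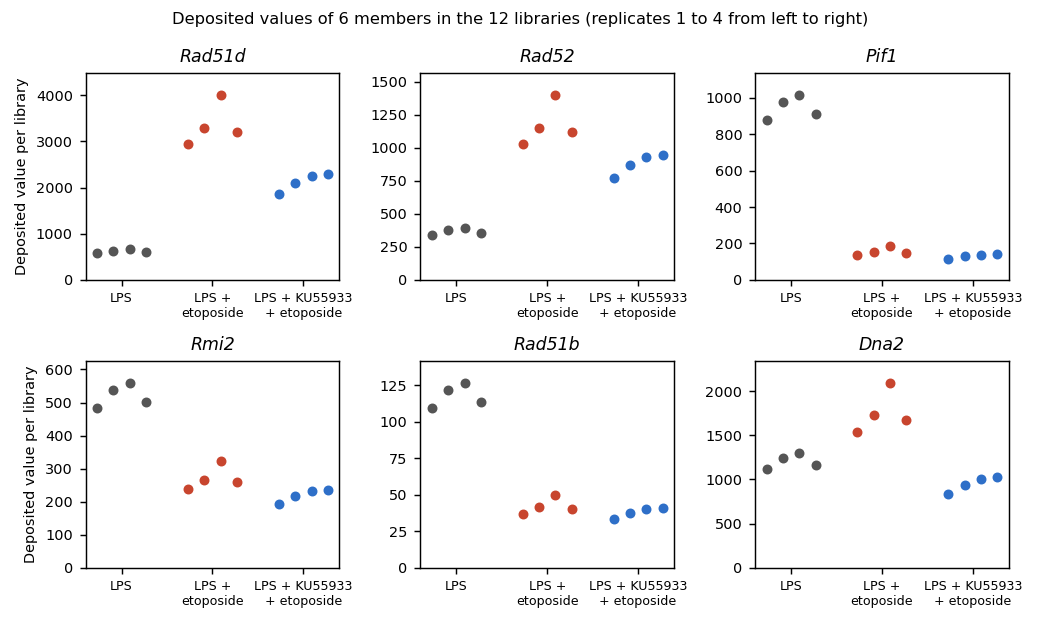
Deposited values of 6 genes in each of the 12 libraries (linear axes from 0; each point is 1 library, replicates 1 to 4 from left to right). The pattern of the 4 points of a condition is the same in every panel, since it comes from library size alone; Rad51d and Rad52 are higher and Pif1, Rmi2 and Rad51b lower in both conditions with etoposide.

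Cells given KU55933 before etoposide were compared with cells given etoposide without it. No condition received KU55933 alone after LPS, so an effect of the inhibitor by itself cannot be told apart from a changed etoposide response. Against LPS + etoposide, 2 of the 39 genes were called lower, beside 11.6% of all tested genes, and 0 were called higher, beside 7.22% of all tested genes. The median log2 difference was −0.10, against −0.04 for all tested genes, and 24 of the 39 genes were below 0. Both called genes encode resection nucleases. Dna2 (chromosome 10, 62947026 to 62974185) was deposited at 1121, 1244, 1294 and 1166 in LPS replicates 1 to 4, at 1539, 1725, 2089 and 1672 in the libraries with LPS + etoposide and at 834, 941, 1008 and 1024 in those with LPS + KU55933 + etoposide. The log2 difference with the inhibitor was −0.78 (counting interval −0.84 to −0.73), and its fitted count with the inhibitor was the lowest of the 3 conditions. Exo1 was at 1067, 1184, 1232 and 1109.7 in LPS replicates 1 to 4, at 1220.5, 1368, 1657 and 1326 in the libraries with LPS + etoposide and at 745, 841, 901 and 915 in those with LPS + KU55933 + etoposide. Its log2 difference of −0.61 has a counting interval (−0.67 to −0.55) that reaches across the 1.5-fold limit, and it was not called with column totals.

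The strongest etoposide responses were altered less than 1.5-fold by the inhibitor. Rad51d went from 3032 to 2051 fitted counts, a log2 difference of −0.56 (counting interval −0.60 to −0.52), just short of the limit, and it was called lower when libraries were scaled by the trimmed mean of M values. Rad52 went from 1058 to 850.0 (−0.32). Pif1, Rmi2 and Rad51b, the lowest after etoposide, were at −0.16, −0.20 and −0.04 with the inhibitor, and the counting intervals of Pif1 and Rad51b include 0. The largest positive log2 differences from LPS + etoposide were those of Mus81, Fance and Rad51c. Mus81 was deposited at 506, 562, 584 and 526 in LPS replicates 1 to 4, at 532, 597, 723 and 578 in the libraries with LPS + etoposide and at 716, 808, 865 and 879 in those with LPS + KU55933 + etoposide, a log2 difference of 0.53 (counting interval 0.45 to 0.60). Fance was at 373, 414, 431 and 388 in LPS replicates 1 to 4, at 329, 368, 446 and 357 in the libraries with LPS + etoposide and at 432, 488, 522 and 531 in those with LPS + KU55933 + etoposide, with a difference of 0.49 (0.40 to 0.59). Rad51c was at 309, 343, 356 and 321 in LPS replicates 1 to 4, at 332, 372, 451 and 361 in the libraries with LPS + etoposide and at 402, 453, 486 and 494 in those with LPS + KU55933 + etoposide, with a difference of 0.37 (0.28 to 0.47). None of these 3 genes was called. The deposited values of all 3 with and without the inhibitor overlap before division by the size factors. Since the scatter within a condition is library size only, this overlap is no replicate check.

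The BRCA1 pair was lower with the inhibitor by a similar, uncalled amount, Brca1 at −0.42 and Bard1 at −0.45, while Brca2, Brip1 and Rad51ap1 were at −0.25, −0.29 and −0.10 and Palb2 at 0.10. Rad50, Mre11a, Nbn and Rbbp8 were at −0.34, −0.01, 0.16 and 0.17. Blm, Wrn and Rmi1 had differences of −0.23, 0.26 and 0.31, and Slx4, Gen1 and Eme1 of −0.24, −0.27 and −0.05. In the Fanconi core complex 7 of 8 genes were above 0, from 0.01 for Fancf to 0.49 for Fance, and Fancb was at −0.42. Scaling by the trimmed mean of M values put Fancf at −0.02. Fancd2 and Fanci were at −0.10 and −0.24. Xrcc2, Xrcc3, Rad54l and Rad54b were at −0.34, −0.04, −0.26 and 0.29.

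Against LPS alone, cells with KU55933 and etoposide had 15 of the 39 genes called lower, beside 15.7% of all tested genes, and 2 called higher, Rad51d (1.56) and Rad52 (1.03), beside 20.5% of all tested genes. This comparison shares the LPS libraries with that of etoposide and the inhibitor libraries with the other, so that values are only set side by side. The median was −0.50, against 0.02 for all tested genes, and scaling by column totals left 7 called lower. Genes called lower here and within 1.5-fold with etoposide alone were Bard1 (−0.94 here and −0.49 with etoposide alone), Rad51ap1 (−0.65 and −0.55), Blm (−0.68 and −0.46), Fancd2 (−0.65 and −0.54) and Exo1 (−0.67 and −0.06), while Wrn was at −0.40 here and at −0.66 there. Rad51ap1, Blm, Fancd2 and Exo1 lost the call made here with column totals, and Blm and Fancd2 also with quantile normalization. Of the 3 conditions, LPS alone had the highest fitted count for 28 genes, and LPS + KU55933 + etoposide had the lowest for 21 and the highest for 4, Rad51c, Mus81, Fance and Fancg.

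Other genes of the pathways were taken from a list of 62 symbols, of which 58 are in the table and passed the filter. With etoposide 10 of the 58 were called lower (17.2%, beside 16.4% of all tested genes) and 3 higher (5.17%, beside 21.9%), with a median of −0.29. Those furthest below 0 were Bre, a subunit of the BRCA1-A deubiquitinase complex (−1.34, 779 and 308 fitted counts), Parpbp (−1.33, 763 and 304), and Nsmce2, a SUMO ligase of the SMC5/6 complex (−1.02, 662 and 325). The 3 called higher were Zswim7 (0.84, 62.5 and 112), the Fanconi-associated nuclease gene Fan1 (0.78, 244 and 420.4) and Xrcc6bp1 (0.73, 149 and 248). Xrcc6bp1 is named after the end-joining gene Xrcc6, and its place in the recombination and Fanconi pathways was not checked. With KU55933 against LPS + etoposide, 1 of the 58 was called lower, Xrcc6bp1 (−0.75), and 1 higher, Apitd1 (1.08), which is named after its value was seen.

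Lists of other DNA metabolism and division genes give the context. With etoposide, 16.4% of all tested genes were called lower and 21.9% higher. Among 36 replication genes, 11 (30.6%) were called lower and 1 (2.78%) higher with etoposide (median −0.32). Among 22 mitosis genes, 17 (77.3%) were called lower and 0 higher (median −1.33). Of 14 tested genes of nonhomologous end joining, the route that religates ends without a template, 0 were called lower and 1 higher (median −0.25). Of these genes 11 were below 0 and 3 above, and Nhej1 lay just short of the limit at −0.584 (92.6 and 61.4 fitted counts). With KU55933 under etoposide the medians were −0.27 for replication, −0.55 for mitosis and 0.03 for end joining, beside the −0.10 of the recombination and Fanconi genes. Medians of the replication and mitosis lists were thus below 0 in both comparisons, as was that of the members. Those of the other pathway genes (−0.29 and −0.09) and of all tested genes (−0.02 and −0.04) were also below 0 in both. The part of replication and mitosis in the members' values was not tested. No difference between lists was tested.

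**Figure D5:**
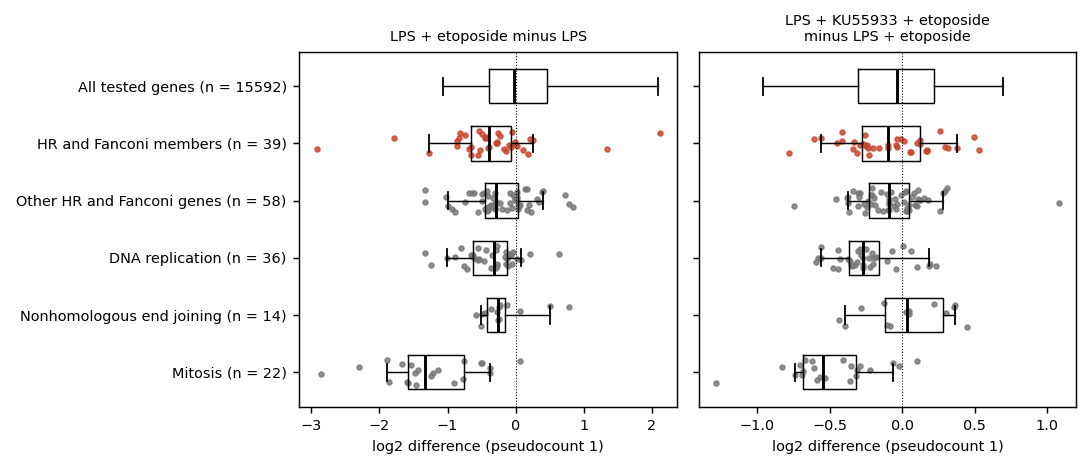
Log2 difference in fitted count (pseudocount 1) of the genes of each list, 1 point per gene, for the comparisons named above the panels, whose axes differ; boxes span the quartiles, the thick line is the median, and whiskers reach the 5 and 95 percentiles. The recombination and Fanconi genes (red) have a median of −0.39 on the left, between the −0.02 of all tested genes and the −1.33 of the mitosis genes.

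Promoters of the members were searched on both strands for 3 motifs of cell cycle genes, in RefSeq promoter sequences of GRCm38.p6 from 250 bases before to 50 after each start. Sequences were matched for 28 of the 39 genes, with 32 promoters. The E2F-type site TTTNNCGC was in the promoters of 7 genes, Bard1, Brca2, Brip1, Dna2, Fancg, Rad51c and Rmi1, and in 25% of the 32 promoters, beside 5.17% of all 32851 promoters of the same length and 7.94% of those of tested genes. The CCAAT box was in 17 genes and 62.5% of the promoters, beside 37.4% of all promoters and 37.8% of those of tested genes. The element TTTGAA was in 3 genes, Bard1, Eme1 and Rad51b, and 9.38% of the promoters, beside 17.9% and 12.3%. GC content had a median of 60% in the members' promoters, 60.3% in those of tested genes and 52.7% in all. Of the 7 matched genes called lower with etoposide, 1 had the E2F-type site, 5 had CCAAT and 2 had TTTGAA, and of the 20 within 1.5-fold the numbers were 6, 12 and 1. A match is a description of letters and not of a bound site. Windows of 30 bases around the E2F-type matches more than 50 bases upstream of the start are shown for the 5 genes that have one, since this motif had the largest ratio to its share of all promoters. These windows include those of Dna2, called lower with KU55933, and Brip1, called lower with etoposide. They also include those of Brca2, Bard1 and Fancg, called in neither of these comparisons. They read 5′ to 3′ in the direction of the gene, with the match in capitals (in Brca2 and Dna2 the site is on the opposite strand), and lie at chr10:62946926-62946955 for Dna2 (plus strand, the match beginning 92 bases before the start), chr11:86201364-86201393 for Brip1 (minus strand, the match beginning 189 bases before the start), chr5:150522442-150522471 for Brca2 (plus strand, the match beginning 168 bases before the start), chr1:71103163-71103192 for Bard1 (minus strand, the match beginning 209 bases before the start) and chr4:43010335-43010364 for Fancg (minus strand, the match beginning 52 bases before the start).
Dna2: gagtggagacgGCGGAAAAgcgcctccggt
Brip1: ttgtcccagtcTTTTTCGCggggtggggtt
Brca2: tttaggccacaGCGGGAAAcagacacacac
Bard1: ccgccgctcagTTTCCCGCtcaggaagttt
Fancg: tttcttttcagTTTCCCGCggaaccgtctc

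By position, 7 of the 39 genes (17.9%) lie on chromosome 11, which holds 8.41% of all tested genes: Fancl, Rad51c, Brca1, Rad51d, Rad50, Brip1 and Eme1. Their log2 differences with etoposide spanned the range from the genes called lower (Eme1, Fancl and Brip1) to the highest value, that of Rad51d. In the GENCODE M21 annotation of GRCm38, 19 of the 39 genes share exonic bases with another gene, and 18 of these only with genes on the opposite strand. The libraries were made with a stranded kit, and the strand setting of the counting is not given in the sources used here. Reads on such shared bases may have been ambiguous between the genes. Of the 13 genes called with etoposide, 7 share no exonic base with another gene (Brip1, Nbn, Pif1, Rad51b, Rad51d, Rad52 and Wrn).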

How the data were processed

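Total cellular mRNA was sequenced in 12 libraries, 4 per condition, with a stranded Illumina kit (single reads of 100 bases). The authors trimmed reads with Trim Galore and cutadapt 1.2.1, mapped them with TopHat2 2.0.12 to GRCm38, counted them with HTSeq on the Ensembl 78 annotation, and fitted DESeq2 1.6.3. The deposited table gives a signal per gene and library on the count scale of the library, in which the libraries of a condition differ by 1 constant factor each, so that no spread between replicates is left. Whether the fit moderated the differences is not given in the sources used here. The 3 deposited comparison tables hold the authors' means, fold changes, standard errors and p-values, and were not used.

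Signals were divided by size factors (median of ratios over genes at 10 or more in at least 4 libraries). Differences are of log2(value + 1), without a test, since limma, planned for a table with replicate spread, could not be fitted to it. Intervals of ratios are exact (Clopper-Pearson, conditional on the sum). Exonic lengths and coordinates came from GENCODE M21, which covers 99.5% of the tested genes. Python 3.11.15, numpy 2.4.6, pandas 2.3.3, scipy 1.17.1 and matplotlib 3.10.9 were used, and the functions were checked on simulated data. Groups are those of the sample titles. The study calls the libraries biological replicates, and the sources used here do not tie them to animals.

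All 39 members are named, with deposited values per library for the 5 largest differences each way past 1.5-fold with etoposide and the 3 largest each way with KU55933, among genes reaching 50 fitted counts, and of the other pathway genes the 3 largest each way. The members and lists were chosen with earlier results of these data known. Other scalings, pseudocounts, filters, a 2-fold limit and leaving out each library were tried. Protein sequences were not used here, and 1 gene of the other pathway genes and 1 B-cell marker are not reported here and were left out of their lists.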

Additional observations from a re-analysis of the deposited data

How the results depend on the processing

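With column totals as the scaling, the median difference of all tested genes became 0.11 for etoposide against LPS and 0.20 for KU55933 and etoposide against LPS, from −0.02 and 0.02, so that fewer genes counted as lower. The members called then numbered 9 against LPS with the inhibitor (2 higher and 7 lower) and 1 against etoposide, with 10 (2 higher and 8 lower) for etoposide against LPS, and their medians were −0.33 and −0.26 against LPS. Relative to the median of all tested genes, the members' median was −0.37 with etoposide in the reported scaling and with column totals and −0.20 with quantile normalization. For both agents against LPS it was −0.53, −0.53 and −0.33. Column totals shift all genes by almost the same amount, so the equality of the first values in each case was fixed in advance. Quantile normalization gave medians of −0.30 for etoposide and −0.35 for the inhibitor with etoposide, both against LPS. Of the calls over all tested genes with etoposide, 57.2% were higher, against 68.0% with column totals and 44.5% with quantile normalization. The share was 38.3% for the inhibitor against etoposide (49.1% with quantile normalization) and 56.6% for both agents against LPS (72.1% with column totals), where the members' share went from 11.8% to 22.2% with column totals. At a minimum fitted count of 50 the share over all tested genes was 49.9% with etoposide. It was 42.5% for the inhibitor against etoposide and 50.5% for both agents against LPS. At a limit of 2-fold, 5 members were called with etoposide (Rad51d, Rad52, Pif1, Rad51b and Rmi2), 5 with inhibitor and etoposide against LPS, and 0 with the inhibitor against etoposide. A stricter limit can only remove calls. Wrn, Brip1 and Fancf lost their etoposide call with column totals, Wrn also with quantile normalization, and Exo1 its call with the inhibitor with column totals. For both agents against LPS, Fancc, Nbn, Rad51ap1, Blm, Fanca, Fancd2, Exo1 and Fancf lost their call with column totals. Blm and Fancd2 also lost it with quantile normalization. The trimmed mean of M values added Rad51d to the genes called lower with the inhibitor, and Dna2 to those called lower for both agents against LPS. Members near 0 with etoposide changed sign (Brca1, Rad50, Exo1, Fancg and Fancm with column totals), and 27 members lay below 0 in place of 32. No called gene changed direction under these alternatives, and the other pseudocounts and filters changed no call of a member. Leaving out a library and setting the size factors again changed no call of a member, which says nothing about replicate variation because the columns of a condition are proportional. No paired analysis was possible because the table holds fitted means without a spread between replicates, and no test was run. Depth limits Rad51b most, whose counting interval for etoposide against LPS is 0.52 wide on the log2 scale.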
